A study of Mus musculus with 3 samples.

Results

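The 42 genes described here encode cell-surface proteins of the nervous system: contactins, Caspr proteins (Cntnap genes), neurexins and neuroligins, NCAM and IgLON proteins, the leucine-rich LRRTM, LRFN and SLITRK families, DSCAM proteins, SorCS receptors, and the very large Lrp1b, Csmd1 and Csmd3. They were chosen by name, and their members are the peaks whose deposited gene symbol is 1 of the 42. That gave 138 of the 14082 distinct Isl1 peaks, for 32 of the 42 genes (76.2%, 95% Wilson interval 61.5 to 86.5%), where 37.5% of all protein-coding genes had a peak. The genes without a line were Cntn2, Cntn3, Cntnap3, Nlgn2, Ncam1, Opcml, Lrrtm2, Lrfn2, Slitrk3 and Slitrk6, and the list gives them no assigned peak. Peaks assigned to other genes did lie within Cntn2, Nlgn2, Ncam1 and Opcml. Because the genes were proposed with this peak list in view, the number of peaks per gene is given as a description and carries no test.

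The peaks are sites of Isl1, a LIM-homeodomain transcription factor, mapped by chromatin immunoprecipitation and sequencing (ChIP-Seq) in cardiac progenitor cells at day 5. All samples came from 1 line of mouse embryonic stem cells, E14 Tg(Nkx2-5-EmGFP), which carries a green fluorescent reporter for the cardiac gene Nkx2-5 and was steered towards cardiomyocytes with BMP4, Activin A, VEGF and FGF factors. Isl1 chromatin was pulled down with the antibody clone 39.4D5 in 2 replicates, and 1 input sample, taken before the pulldown, served as background. The list keeps the areas common to both replicates and holds no read number or score, so neither the depth nor a replicate error is known, and the intervals below cover counting error only. Cell type markers cannot be read from such a list, and no expression was measured here.

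Contactins, which hang on the membrane by a lipid anchor, and their Caspr partners hold axon and glial membranes together at the node of Ranvier and in developing circuits. Neurexins on the presynaptic side meet neuroligins and LRRTM proteins across the synaptic cleft, and SLITRK and LRFN proteins likewise organise synapses through leucine-rich repeats. SorCS proteins sort cargo through a VPS10 domain, Lrp1b belongs to the LDL receptor family, and CSMD proteins are built of CUB and sushi domains, so these 3 families are not adhesion molecules in the strict sense. Many of these genes are spread over very long introns and stand far from their neighbours, in DNA rich in transposons. Homeodomain proteins as a class contact a TAAT core. Mouse LINE-1 retrotransposons of the A, TF and GF types start with a row of tandem units, called monomers, that act as their promoter.

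The name of the set, large genes in gene deserts, held for most members and not for all. The median annotated gene length was 352.7 kb, with 8 genes of 1000 kb or more and 10 genes under 50 kb, among them Slitrk1 with 4.25 kb and Lrrtm2 with 6.01 kb. The territory of a gene was taken as the sequenced bases of mm9 that lie closer to its protein-coding transcription start sites (TSSs) than to those of any other gene. Its median was 1013.7 kb for the 42 genes and 46.4 kb for all coding genes. It reached 3223 kb for Cntnap5a and 3140 kb for Lrp1b, but only 9.93 kb for Nlgn2, 25.5 kb for Cntnap1 and 34.8 kb for Lrfn1.

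The member peaks were first sorted by their sequence. Each peak was described by the median number of copies in mm9 of the 31-base words in its central 200 bp, with 2 or more called multi-copy. Tandem repeats were sought as well, long units over the whole peak and short ones in the central 200 bp. Of the 138 peaks, 70 consisted of a long tandem unit with a period of 200 to 220 bases, 32 of a short tandem repeat with a period of 1 to 6 bases, 18 were otherwise multi-copy, and 18 were single-copy without either structure. The sequences that follow show each kind, all from the mm9 genome and written 5′ to 3′.

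Peaks with long tandem units shared sequence across genes and chromosomes. The largest group of peaks linked by shared words held 60 peaks of 23 genes, and is called the 212-base group after the period of 41 of them. It took in 51 long tandem units and 9 peaks that were multi-copy without passing the limit for a tandem. In 46 of the 60, belonging to 20 genes, the same 31-base word occurred, shown here in capitals within 100 bases. The 5 windows lie in the peaks 227 kb inside Cntnap4 (chr8:115320821-115320920, minus strand), 36.6 kb inside Csmd1 (chr8:17498098-17498197, minus strand), 303 kb upstream of Lrp1b (chr2:42811431-42811530, minus strand), 360 kb inside Lrrtm4 (chr6:80329518-80329617, plus strand) and 40.3 kb inside Nlgn1 (chr3:26011446-26011545, minus strand).
Cntnap4: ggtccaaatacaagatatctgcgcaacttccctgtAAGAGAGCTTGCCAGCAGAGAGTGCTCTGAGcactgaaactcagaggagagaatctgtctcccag
Csmd1: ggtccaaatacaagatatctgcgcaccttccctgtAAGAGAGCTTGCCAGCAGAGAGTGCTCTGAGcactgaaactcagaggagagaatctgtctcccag
Lrp1b: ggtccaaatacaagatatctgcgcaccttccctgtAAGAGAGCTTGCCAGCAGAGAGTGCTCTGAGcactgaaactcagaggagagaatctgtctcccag
Lrrtm4: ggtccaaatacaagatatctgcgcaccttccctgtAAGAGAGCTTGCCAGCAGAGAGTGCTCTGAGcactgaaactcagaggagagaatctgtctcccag
Nlgn1: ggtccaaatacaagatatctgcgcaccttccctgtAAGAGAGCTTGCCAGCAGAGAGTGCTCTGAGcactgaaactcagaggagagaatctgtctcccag
The window of Cntnap4 differed from each of the other 4 at 1 base, and those 4 were identical. The Lrp1b peak was 1 of the 9 not called tandem, and the other 4 were long tandem units. Adjacent copies in the peak 1502 kb upstream of Cntnap5a (chr1:116079686-116079897 and chr1:116079474-116079685, both minus strand) are shown with each TAAT or its reverse ATTA in capitals.
Cntnap5a unit 1: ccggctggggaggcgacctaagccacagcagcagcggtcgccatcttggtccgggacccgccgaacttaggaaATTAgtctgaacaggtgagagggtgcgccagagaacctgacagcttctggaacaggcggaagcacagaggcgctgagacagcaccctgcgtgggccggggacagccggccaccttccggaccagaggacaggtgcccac
Cntnap5a unit 2: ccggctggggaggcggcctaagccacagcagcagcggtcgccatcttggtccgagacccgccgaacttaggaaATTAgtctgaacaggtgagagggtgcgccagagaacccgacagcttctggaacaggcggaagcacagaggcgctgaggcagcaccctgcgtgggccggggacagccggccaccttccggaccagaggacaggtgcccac
These copies of 212 bases agreed at 208 positions, or 98.1%, and each held 1 such core in a sequence of 65.1% and 66.0% GC. Neither copy held the 31-base word shown above, so that word shows sequence shared between peaks and not this unit.

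A second group, the 208-base group, held 23 peaks in 14 genes and was built from another unit, 208 bases long in 17 of them. A 31-base word occurred in 21 of the 23 peaks and in all 14 genes. It is shown in capitals in the peaks 58.8 kb upstream of Cntn1 (chr15:91821066-91821165), 131 kb upstream of Cntn6 (chr6:104311864-104311963) and 81.5 kb inside Cntnap4 (chr8:115175081-115175180), all on the minus strand.
Cntn1: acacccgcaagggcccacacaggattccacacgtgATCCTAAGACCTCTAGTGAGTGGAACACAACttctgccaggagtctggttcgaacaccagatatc
Cntn6: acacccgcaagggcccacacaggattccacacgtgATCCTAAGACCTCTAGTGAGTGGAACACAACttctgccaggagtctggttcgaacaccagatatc
Cntnap4: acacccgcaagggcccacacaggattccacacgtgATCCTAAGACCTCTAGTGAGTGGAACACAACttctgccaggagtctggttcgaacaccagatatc
All 3 windows were identical. The Cntn1 peak, the widest member peak with 3918 bp, spanned a length equal to 18.8 units, and adjacent units from it (chr15:91823003-91823210 and chr15:91822795-91823002, minus strand) are shown with CG in capitals.
Cntn1 unit 1: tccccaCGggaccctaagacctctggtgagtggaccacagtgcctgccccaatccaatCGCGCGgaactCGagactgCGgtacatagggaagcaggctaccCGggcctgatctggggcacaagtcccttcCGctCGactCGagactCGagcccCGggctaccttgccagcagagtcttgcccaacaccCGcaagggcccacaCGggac
Cntn1 unit 2: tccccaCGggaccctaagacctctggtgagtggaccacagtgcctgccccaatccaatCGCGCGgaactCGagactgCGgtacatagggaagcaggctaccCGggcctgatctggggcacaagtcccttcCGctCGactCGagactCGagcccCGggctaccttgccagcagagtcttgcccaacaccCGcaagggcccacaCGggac
They were identical at all 208 positions, held 14 CG each, and held no TAAT in either direction. The exact 31-base word above was not in these units. A further form was shared by 7 peaks of 6 genes when words of 75 bases were used. All 7 also belong to the 212-base group, though their commonest period was 206 bases, in 3 of them. A 31-base word common to all 7 is shown in capitals from Lsamp (chr16:40718750-40718849) and Cntn4 (chr6:106265982-106266081), both on the minus strand.
Lsamp: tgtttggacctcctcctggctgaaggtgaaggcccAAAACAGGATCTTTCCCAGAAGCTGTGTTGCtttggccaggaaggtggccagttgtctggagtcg
Cntn4: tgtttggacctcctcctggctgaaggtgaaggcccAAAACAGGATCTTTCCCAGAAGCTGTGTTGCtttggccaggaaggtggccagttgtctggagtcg

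The most abundant words lay in short tandem repeats, though this class had a median of 96 copies against 2061 in the long units. The examples are the centres of the 2 peaks with the highest copy number (Cntn4, chr6:106355567-106355686, and Nrxn3, chr12:90688958-90689077). Both are on the plus strand, and capitals mark each base equal to the base one period earlier.
Cntn4: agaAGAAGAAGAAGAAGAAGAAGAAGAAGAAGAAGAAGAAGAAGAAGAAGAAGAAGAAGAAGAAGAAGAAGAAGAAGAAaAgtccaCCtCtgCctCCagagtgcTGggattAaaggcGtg
Nrxn3: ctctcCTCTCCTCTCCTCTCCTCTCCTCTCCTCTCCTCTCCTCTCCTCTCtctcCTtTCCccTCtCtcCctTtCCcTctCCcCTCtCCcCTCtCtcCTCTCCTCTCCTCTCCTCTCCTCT
The median copy number of the 31-base words was 192122 at the Cntn4 peak, where the period was 3 bases, and 33916 at the Nrxn3 peak, with a period of 5 bases. The short repeat nearest to a TSS, in the Lrrtm1 peak with a period of 5 bases and 244 copies, was 595 bp upstream of the TSS of this gene, whose product is an LRRTM synapse organiser.

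Peaks at start sites looked different. Bases just before the annotated 5′ end of the gene, within the peak and outside any annotated exon, are shown for Ncam2 (chr16:81200822-81200941, plus strand), Dscam (chr16:97392360-97392479, minus strand), Sorcs1 (chr19:50753103-50753222, minus strand) and Csmd1 (chr8:17535587-17535706, minus strand), with CG in capitals.
Ncam2: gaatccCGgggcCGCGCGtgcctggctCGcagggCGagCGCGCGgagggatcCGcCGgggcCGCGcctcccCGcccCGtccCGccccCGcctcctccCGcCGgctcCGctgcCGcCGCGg
Dscam: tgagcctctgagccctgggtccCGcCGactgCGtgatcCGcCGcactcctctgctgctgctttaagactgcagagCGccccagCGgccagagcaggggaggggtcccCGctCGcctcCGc
Sorcs1: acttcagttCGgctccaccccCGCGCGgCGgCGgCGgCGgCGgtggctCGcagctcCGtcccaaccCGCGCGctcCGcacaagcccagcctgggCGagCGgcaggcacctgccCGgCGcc
Csmd1: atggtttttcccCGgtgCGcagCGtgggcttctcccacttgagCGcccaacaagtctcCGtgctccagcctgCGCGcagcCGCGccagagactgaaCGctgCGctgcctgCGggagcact
These 120 bases held 23 CG in Ncam2, 19 in Sorcs1, 12 in Csmd1 and 10 in Dscam. Their GC ran from 66.7% in Csmd1 to 85.8% in Ncam2, and each peak was single-copy.

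Only 4 peaks beyond 100 kb were single-copy and outside both tandem classes. They lay 762 kb upstream and 992 kb downstream of Slitrk1, 844 kb downstream of Slitrk5 and 245 kb downstream of the Csmd1 TSS, within an intron of that gene. Their GC of 32% and 52.5% at Slitrk1, 37.5% at Slitrk5 and 38.5% at Csmd1 was below that of every start site peak shown above.

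The peaks lay mostly far from start sites. A distance of more than 100 kb from the assigned TSS was recorded for 111 of the 138 member peaks, or 80.4% (73.0 to 86.2%), against 3129 of the 13944 peaks of other genes, or 22.4% (21.8 to 23.1%). The median distance was 360.8 kb for member peaks and 11.6 kb for all peaks. Within 1 kb of the TSS were 13 member peaks, 2 lay at 1 to 10 kb and 12 at 10 to 100 kb. In the annotation 46 of the 138 peaks fell in introns, 81 between genes and 11 in exons, and 52 lay inside the gene they were assigned to. Of the peaks of other genes 27.4% were in introns, 40.9% between genes and 31.7% in exons. Beyond 100 kb, introns held 31.5% of member peaks (23.6 to 40.7%) and 20.6% of the others (19.2 to 22.0%). The set was proposed as large genes in gene deserts, so these contrasts in distance and introns describe that choice and carry no test. Upstream and downstream were about even, with 63 and 75 peaks.

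**Figure D1:**
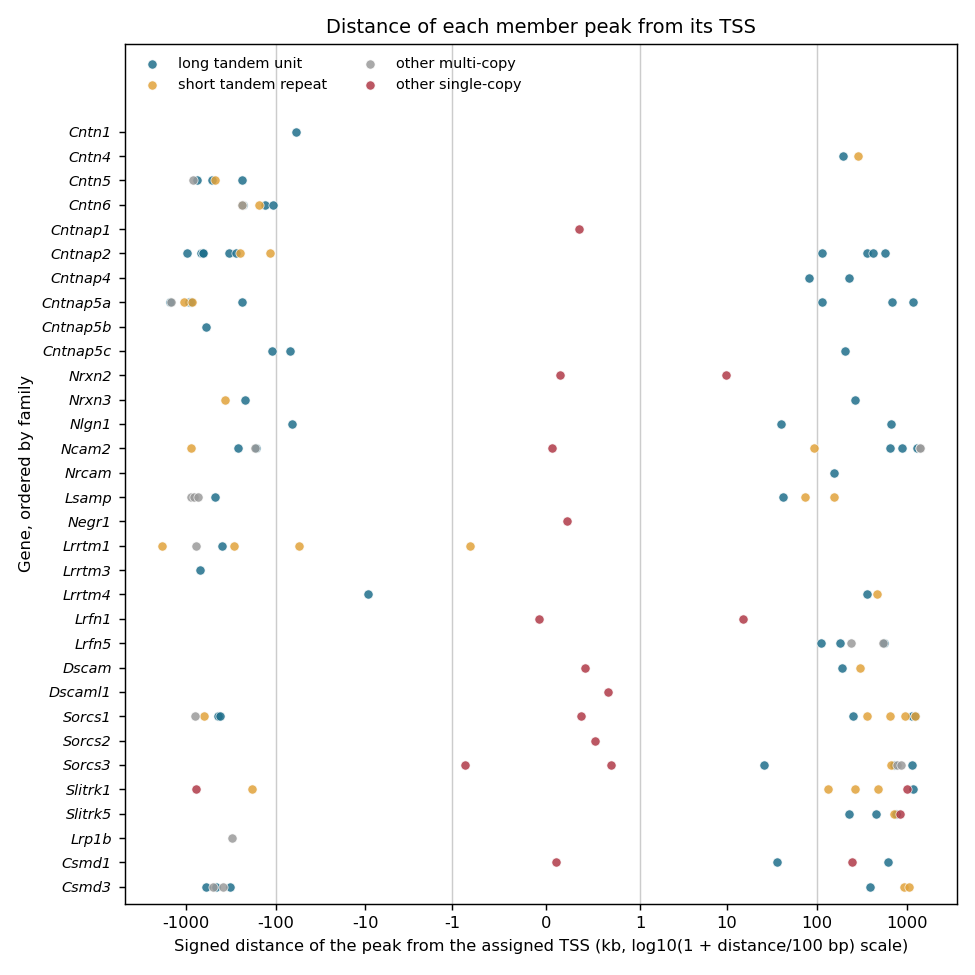
Signed distance of each of the 138 peaks from its assigned TSS (horizontal, in kb on a log10(1 + distance/100 bp) scale, negative upstream). Each gene with a peak has 1 row, and colours give the sequence class, with long units called over the whole peak. The 12 single-copy peaks within 1 kb stand in the middle, and the repeat peaks lie beyond 10 kb on either side, other than 1 peak each of Lrrtm1 and Lrrtm4.

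With distance went the kind of sequence. The 111 peaks beyond 100 kb comprised 61 long tandem units, 28 short repeats, 18 other multi-copy peaks and the 4 single-copy peaks. Within 1 kb the order was turned around, with 12 single-copy peaks, 1 short repeat and no long unit, where a count of 0 of 13 allows a share of up to 23.1%. In total 115 of 138 member peaks were multi-copy (83.3%, 76.2 to 88.6%), compared with 46.1% of the peaks of other genes. At equal distance the gap was smaller. Beyond 100 kb, 91.9% of member peaks (85.3 to 95.7%) and 90.2% of other genes' peaks (89.1 to 91.2%) were multi-copy, and within 1 kb the shares were 7.69% (1.37 to 33.3%) and 2.55% (2.17 to 3.01%). At 10 to 100 kb, 11 of the 12 member peaks were multi-copy (91.7%, 64.6 to 98.5%), against 73.7%, which lies within the member interval. Long tandem units were 8 of these 12 (66.7%, 39.1 to 86.2%) and 29.6% of other genes' peaks (28.2 to 31.1%), so for this structure the intervals did not overlap at that distance.

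Beyond 100 kb the shares of each structure lay closer together. Long tandem units made up 55.0% of the 111 member peaks (45.7 to 63.9%) and 50.7% of the 3129 others (48.9 to 52.4%). For short repeats the shares were 25.2% (18.1 to 34.0%) and 27.1%, and for other multi-copy sequence 16.2% (10.5 to 24.2%) and 16.0%. For single-copy sequence outside both tandem classes they were 3.6% (1.41 to 8.90%) and 6.17%. Words of the 212-base group found in at least 3 member genes occurred in 55 of the 111 member peaks (49.5%, 40.4 to 58.7%) and in 1398 of the other 3129 (44.7%, 42.9 to 46.4%), and words of the 208-base group in 19 (17.1%, 11.2 to 25.2%) and 541 (17.3%, 16.0 to 18.6%). These words were defined on the member peaks, which favours them. No structure set the peaks of these 42 genes beyond 100 kb apart from other peaks at that distance beyond counting error.

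**Figure D2:**
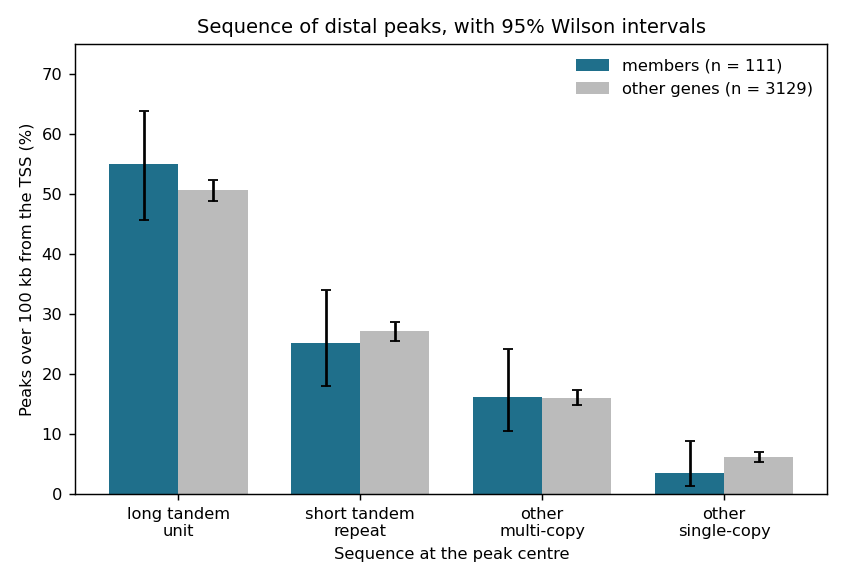
Share of peaks beyond 100 kb from the TSS (vertical, %) in each sequence class, for the 111 member peaks and the 3129 peaks of other genes, with 95% Wilson intervals that cover counting error only. In every class the member interval takes in the share of the other genes.

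Copy number also divided the structures. Long tandem units of members had between 6 and 3622 copies of their words with a median of 2061, and short tandem repeats between 1 and 192122 with a median of 96. GC was narrow in the long units, 50.0 to 69.5% with a median of 65.0%, and wide in the short repeats, 38.5 to 70% with a median of 54.0%. The single-copy class spanned 32 to 84.5%, from the peak upstream of Slitrk1 to the Dscam start site. CG content relative to expectation from base composition had a median of 0.851 in that class, 0.568 in the long units and 0.185 in the short repeats. Member peaks as a whole had a median GC of 64.5% and a median width of 956.5 bp, against 66.5% and 947 bp for the peaks of other genes.

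**Figure D3:**
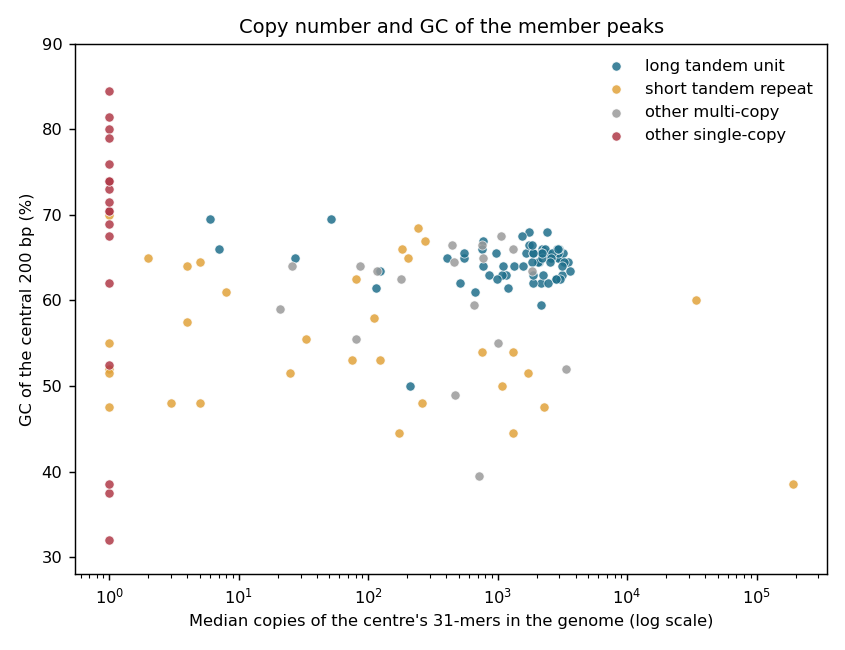
GC of the central 200 bp (vertical, %) against the median number of genome copies of its 31-base words (horizontal, log scale) for the 138 member peaks, coloured by structure. Long tandem units cluster near 65.0% GC, and the single-copy peaks at left range from 32 to 84.5%.

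At the peak centre the homeodomain core went with the unit, but over whole peaks it did not. TAAT on either strand was present in the central 200 bp of 54 of the 138 peaks (39.1%, 31.4 to 47.5%) and of 19.2% of the peaks of other genes. Beyond 100 kb the shares were 45.0% (36.1 to 54.3%) and 36.2% (34.6 to 37.9%), and at 10 to 100 kb 25.0% and 25.5%. It occurred in 40 of the 48 member peaks built from units of 212 or 214 bases (83.3%, 70.4 to 91.3%) and in 0 of the 17 with the 208-base unit. Other genes' peaks split alike, with 87.7% of 1730 and 0.439% of 683. Over the whole peak the core was present in all 60 peaks of the 212-base group, in 22 of the 23 of the 208-base group and in 92.0% of the 138. Among 12 single-copy peaks within 1 kb and the Lrrtm1 repeat, 1 peak held the core in its central 200 bp, that of Negr1. Over the whole peak the start site peaks of Cntnap1, Ncam2, Dscam, Sorcs3 and Csmd1 held it too. Those of Nrxn2, Lrfn1, Dscaml1, Sorcs1 and Sorcs2 and the Lrrtm1 repeat did not. The longer strings CTAATGG and CTAATTG, sought on both strands, were in 0 of the 138 centres, which allows a share of up to 2.17% each, and in 31 and 27 of the 13944 other centres. Over whole peaks they occurred in 5.07% and 2.17% of member peaks. No whole-peak share of other genes' peaks is given beside these or the 92.0%, so they show no difference between the sets.

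Far from start sites the member territories held about as many peaks per Mb as the rest of the genome at that distance. For this each peak was given to the closest coding TSS of the mm9 annotation, which put 159 peaks in the 47.6 Mb of the 42 territories, or 3.34 peaks per Mb (exact 95% Poisson interval 2.84 to 3.90), against 5.50 per Mb over all genes. Beyond 100 kb from a TSS the density was 3.38 per Mb in the members' 36.7 Mb (2.81 to 4.02) and 3.34 per Mb in the genome (3.23 to 3.46). Within 1 kb it was 108.7 per Mb (62.2 to 176.6) and 94.4 per Mb (91.9 to 96.9). Between 10 and 100 kb it was lower in the members, 1.78 per Mb (1.04 to 2.85, 17 peaks) against 3.37 per Mb (3.26 to 3.48). The 2 member peaks at 1 to 10 kb gave 1.73 per Mb (0.210 to 6.25), and the genome 3.69.

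**Figure D4:**
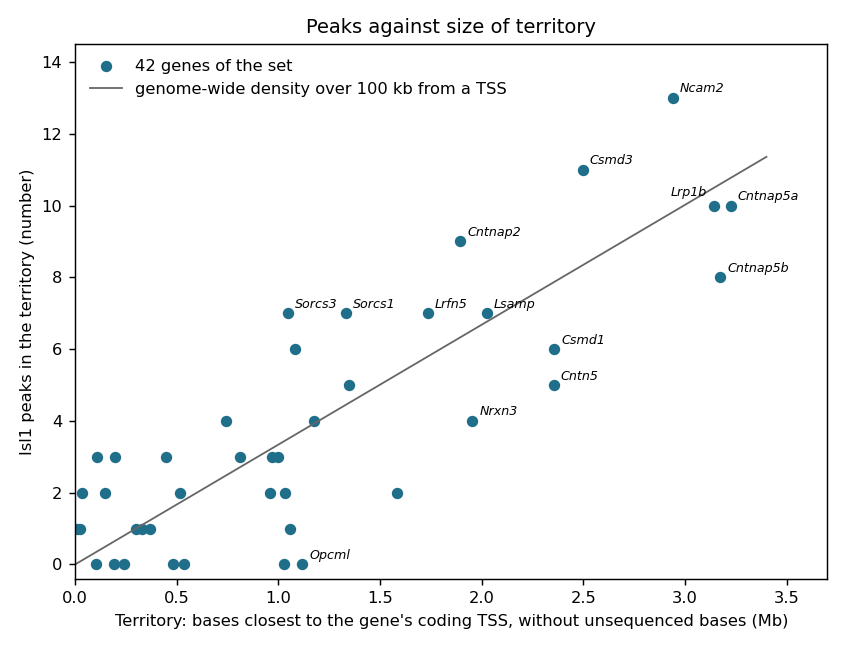
Peaks in the territory of each of the 42 genes (vertical) against the size of the territory (horizontal, Mb), with peaks given to the closest coding TSS of mm9. The line is the density of 3.34 peaks per Mb found genome-wide beyond 100 kb; Ncam2 with 13 peaks and Csmd3 with 11 lie above it, and Opcml with 0 peaks in 1115 kb and Slitrk6 with 0 in 1028 kb lie below.

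Counted per gene, at least 2 peaks were assigned to 23 of 42 members, against 10.6% of coding genes. A peak beyond 100 kb was assigned to 25 of 42, against 5.68%, and a peak within 1 kb to 12 of 42 (28.6%, 17.2 to 43.6%), against 23.2%. The 28 members with a territory of 500 kb or more included 24 with a peak, where 85.7% of all 768 coding genes with such territories had one. Their mean number was 4.43 peaks and that of all such genes 2.55, with median territories of 1252 and 761 kb. Among the 14 members with smaller territories 8 had a peak, where 37.5% of coding genes of any territory had one. The share over coding genes with smaller territories was not computed, so this count is a description only.

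**Figure D5:**
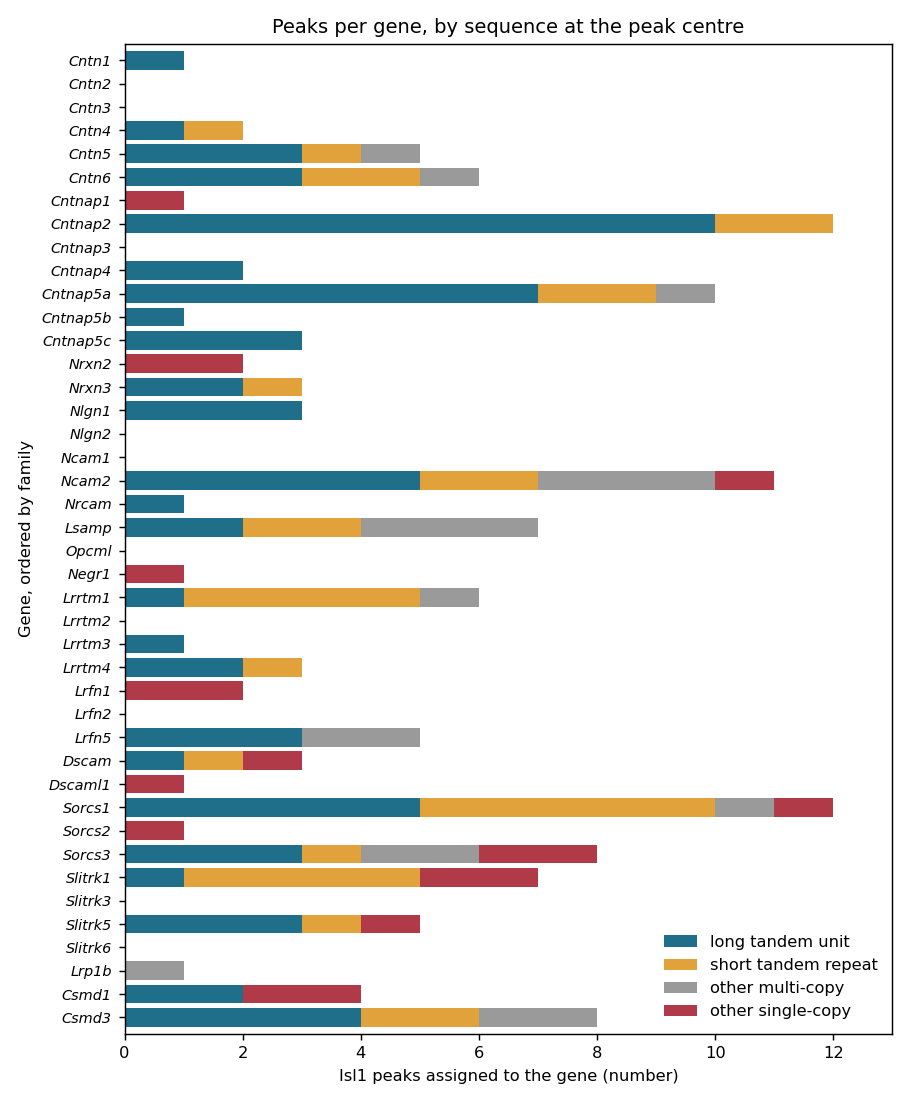
Number of assigned peaks (horizontal) for each of the 42 genes in family order, split by sequence class, with long units called over the whole peak. Cntnap2 and Sorcs1 reach 12 peaks each, and the 10 genes without a bar have no assigned peak.

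Among the contactins, 4 of 6 genes had 14 peaks, and 13 of these lay beyond 100 kb. Cntn6 had 6, all upstream between 108 and 237 kb, with long units of both the 212-base and the 208-base kind and 2 short repeats. Cntn5 had 5, all 236 to 818 kb upstream, 4 of them in the 212-base group. The 2 peaks of Cntn4 lay in its introns, 197 and 287 kb from the TSS, and the 1 peak of Cntn1 is the wide 208-base array shown above. No contactin had a peak within 1 kb.

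Of the 7 Caspr genes 6 had peaks, 29 in all, and 28 were multi-copy. Cntnap2, one of the longest mouse genes with 2241 kb, had 12 peaks, of which 10 were long tandem units and 2 short repeats. Of the 12, 5 belonged to the 212-base group and 5 to the 208-base group. The distances rest on 2 start sites, since peak midpoints and distances point to position 45010060 for 9 peaks and to 47194395 on chromosome 6 for 3. Relative to the first, peaks lay 116, 247, 274, 329 and 640 kb upstream and 114, 365, 426 and 575 kb downstream. The other 3 were recorded at 647, 667 and 957 kb upstream of the second site, though they lie in an intron of the gene. Nlgn1 was the only other member with 2 such sites.

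Cntnap5a had 10 peaks, from 1502 kb upstream to 1177 kb downstream. Of these, 8 were of the 212-base group, and 2, at 1045 and 857 kb upstream, were short repeats of periods 6 and 3. The 7 upstream distances were 1502, 1455, 1045, 914, 876, 857 and 237 kb, and the downstream ones 115, 678 and 1177 kb, of which the first 2 were intronic. The sister genes Cntnap5c and Cntnap5b had 3 and 1 peaks. Cntnap1, a short gene whose protein sits at the paranodal junction, was the exception with 1 single-copy peak 134 bp from its TSS (chr11:101037187-101037944, 62.0% GC), in a UTR.

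Neurexin and neuroligin genes had 8 peaks, 7 of them inside the gene. Nrxn2 had only single-copy peaks, at 42 bp (chr19:6418192-6419368, 73.0% GC) and at 9.68 kb in a coding exon (chr19:6427685-6429143, 74.0% GC). Nrxn3 had 3 intronic peaks at 217 kb and 362 kb upstream and 269 kb downstream of the assigned TSS, 1 each of the 208-base unit, the short repeat shown above and the 212-base unit. The 3 peaks of Nlgn1 were long units. Ncam2, which encodes an olfactory axon adhesion protein, had 11 peaks, while its relative Ncam1 had none and Nrcam had 1.

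In Ncam2 the start site peak at 15 bp (chr16:81200585-81201329, 81.5% GC) was single-copy and 744 bp wide. The others lay 165, 171, 261 and 867 kb upstream and 92.5, 659, 891, 1307, 1384 and 1385 kb downstream. Of these, 5 were units of 212 or 214 bases and 2 were short repeats. The peak 867 kb upstream, a short repeat of period 5, was also single-copy by its words. The remaining 3, at 171, 1384 and 1385 kb, were multi-copy sequence with 719, 465 and 1000 copies and no tandem structure.

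The IgLON gene Lsamp had 7 peaks, all multi-copy, between 866 kb upstream and 155 kb downstream, and Negr1 had 1 peak at 69 bp (chr3:156224103-156225552, 80% GC). Opcml, 1135 kb long, had none assigned, though 1 peak assigned to another gene lay within it. Among the LRRTM genes Lrrtm1 had 6 peaks, 4 of them short repeats, Lrrtm4 had 3, Lrrtm3 1 and Lrrtm2 none, and all 10 were multi-copy. The Lrrtm4 peak 9.29 kb upstream (chr6:79959136-79960021) was a 208-base unit with 2168 copies, and was the nearest long unit to any member TSS.

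LRFN and DSCAM genes showed the contrast within a family. Lrfn1, with a territory of 34.8 kb, had single-copy peaks 21 bp upstream of its TSS (chr7:29236650-29237823, 79.0% GC) and 15037 bp downstream in a coding exon. Lrfn5, with 1734 kb, had 5 multi-copy peaks from 110 to 553 kb. Dscam had the peak with the highest GC, 84.5%, at 169 bp (chr16:97391761-97392586), and 2 repeat peaks in introns at 190 and 305 kb. Dscaml1 had 1 peak, single-copy, at 386 bp (chr9:45238257-45239267, 70.5% GC).

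SorCS genes held 21 peaks, 4 of them within 1 kb. Sorcs1 had 12, namely its start site at 144 bp (chr19:50752430-50753555, 70.5% GC), 5 units of 212 bases, 5 short repeats and 1 other. They lay 413, 436, 622 and 782 kb upstream, and 252, 359, 659, 956, 1155, 1218 and 1233 kb downstream. Sorcs3 had a pair of single-copy peaks at its start, 704 bp upstream (chr19:48279402-48280221, 74.0% GC) and 421 bp downstream (chr19:48280453-48281419, 67.5% GC). Its 6 others lay 25.9, 663, 727, 771, 864 and 1135 kb downstream. Of these the one at 663 kb was a short repeat with single-copy words. Sorcs2 had 1 peak, at 246 bp in a coding exon (chr5:36739935-36741150, 71.5% GC).

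SLITRK genes are compact, yet Slitrk1 had 7 peaks between 134 and 1157 kb and Slitrk5 had 5 between 229 and 844 kb, all outside the gene. Slitrk1 had the fewest long units of the genes with 7 or more, 1 against 4 short repeats and 2 single-copy peaks outside both tandem classes. Slitrk3 and Slitrk6 had none. Csmd3 had 8 peaks, 587, 491, 457, 384 and 323 kb upstream and 394, 935 and 1049 kb downstream, of which 3 belonged to the 208-base group and 2 to the 212-base group. Csmd1 had 4 peaks, among them its start site at 28 bp (chr8:17534902-17535812, 76.0% GC). Lrp1b, 2058 kb long, had a single assigned peak 303 kb upstream with 21 copies, while 6 peaks assigned to other genes lay within it.

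Start site peaks went with GC-rich promoters. Over 250 bases before to 50 after the annotated 5′ end, the 12 members with a peak within 1 kb had a median GC of 67.7% (48.3 to 82.3%), and the 30 others 55.3% (27.7 to 74.0%), equal to the 55.3% over 22219 coding genes of the annotation. The ranges overlapped, and Lrrtm1, with the short repeat, had the lowest value of the 12. For Cntnap1 (69%) and Dscaml1 (50%) the annotated 5′ end lies several kb from the TSS that the peak was assigned to. Their values are therefore not the GC of the promoter under the peak.

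Shared sequence joined most of the set. At least 1 word of 31 bases was shared with a peak of another member by 123 of the 138 peaks. Leaving out words that are themselves short repeats, a choice made after seeing the data, left 85, in groups of 60, 23 and 2. The pair consisted of the peaks 171 kb upstream of Ncam2 and 236 kb upstream of Cntn6. In all, 26 genes had a peak in 1 of the 2 large groups. Such linking was not counted among the peaks of other genes, so these counts have no background. Beyond 100 kb, words of the 212-base group found in at least 3 member genes occurred in 55 of 111 member peaks and 1398 of 3129 others. For the 208-base group the counts were 19 and 541, so the shared words were not particular to these genes. Inside genes, units of the 212-base group ran in 1 direction relative to the gene in 10 peaks and in the opposite one in 10, and those of the 208-base group in 3 and 6.

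Which gene a distal peak is credited to depended on the annotation. With coding TSSs of mm9, 117 of the 138 peaks kept their gene and 42 others joined, which gave 159. With the TSSs of any annotated gene, noncoding ones included, the members were left with 67 peaks. By coding TSSs, the count of single genes moved as well. Lrp1b had 10 peaks in place of 1, Cntnap5b 8 in place of 1 and Cntn3 3 in place of 0. Slitrk1 had 2 in place of 7 and Sorcs1 7 in place of 12. The peaks lost by Slitrk1 went to Rpl27a-ps2 and those lost by Sorcs1 to Rpl13a-ps1. By their names these are pseudogenes, but the annotation counts them as coding. The territories and densities above rest on the same TSSs. Nlgn2 and Slitrk3 had 1 each in place of 0. How reads that fit many copies were placed, and what part this has in the number of peaks at multi-copy sequence, was not tested.

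Related families outside the set also held many multi-copy peaks far from start sites. Of 42 further adhesion and synapse genes, 30 had a peak (71.4%, 56.4 to 82.8%), where 37.5% of all protein-coding genes had one. Of their 78 peaks 54 (69.2%) were multi-copy, against 83.3% of member peaks. Beyond 100 kb lay 51 of the 78, against 111 of the 138 member peaks. No interval was computed for these related shares, and the multi-copy share was not compared at equal distance. They therefore show no difference between the sets. Flrt2, an FLRT adhesion protein gene, had 9 peaks, Flrt3 and Cadm2 6 each, Slitrk2, Igsf11 and Cbln2 5 each, and Ntm and Mdga2 4 each. Chl1, Ptprd, Slitrk4 and Adam22 had 3 each. A peak within 1 kb was found for 17 of the 42, where 12 of the 42 members and 23.2% of coding genes had one. It lay at 13 bp in Csmd2, 25 bp in Cadm3, 117 bp in Clstn2, 129 bp in Clstn1, 152 bp in Cadm4, 163 bp in Adam22 and 194 to 694 bp in Sort1, Adam23, Lrfn3, Lrp1, Lrfn4, Cadm2, Lrp2, Mdga1, Ptprf, Cadm1 and Mdga2. Flrt2 had its nearest peak at 3.30 kb.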

How the data were processed

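The deposited file was 1 list of Isl1 peaks for both ChIP replicates, giving each peak's position, its signed distance in bp from a TSS, a RefSeq identifier and a symbol. Per the labels and the methods of the study, the authors aligned reads to mm9 with bowtie2 at default settings, removed duplicates with Picard 1.136, called peaks with MACS14, dropped blacklisted peaks, kept areas common to the replicates with bedtools 2.15 and assigned the closest TSS with HOMER. Such settings report 1 placement for a read that fits many. Whether starts count from 0 or 1 is not given in the sources used here.

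Identical lines were dropped, leaving 14082 peaks from 14165 lines, and peaks were matched to the 42 names. The members and all lists were chosen with earlier results of these data known. The NCBI m37 genome (the mm9 sequence) and GENCODE vM1 gave sequence, genes and territories, and a RefSeq table of GRCm38 gave the class of 21896 coding genes, of which 18217 had a territory. Words of 31 bases (75 as alternative) were counted on both strands. Short tandem means that at least 60% of bases in the central 200 bp equal the base 1 to 6 positions on, and long tandem that at least 45% in the whole peak equal the base 200 to 220 positions on, the best period between 100 and 400. Counting was checked on planted sequence, with 18 of 18 planted counts recovered. All members are named, peak by peak values are given for the 6 genes with most peaks and for peaks within 10 kb, and related genes are named with at least 3 peaks or 1 within 1 kb. A related gene and some sequences are not reported here. Intervals are 95% Wilson for shares and exact Poisson for densities, and an upper limit for a count of 0 is 3 counts. No p-value was computed, since the choice of genes used the peaks. Python 3.11.15, numpy 2.4.6, pandas 2.3.3, scipy 1.17.1, numba 0.67.0 and matplotlib 3.10.9 were used.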

Additional observations from a re-analysis of the deposited data

How the results depend on the processing

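The list joins both replicates, so no replicate could be left out, depth is unknown and peaks that missed the cutoff in 1 replicate are not seen. No paired analysis was possible because the result comes from no test and the list has no column per replicate. Of 34 alternatives, 21 stayed within 1.5 times a count, within the 95% interval of a share or within 1 SD over peaks of a median, and 13 moved further. Limited to single-copy peaks, 23 peaks of 15 members were left, of which 9 lay beyond 100 kb (39.1%) and 12 within 1 kb, so most of them were no longer far from a TSS, and 18 were left when tandem repeats were dropped too, a choice made after seeing the data. Closest TSSs of any annotated gene left 67 peaks. A limit of 10 kb left 13 members with a peak and one of 100 kb left 18. Multi-copy shares were 60.1% with 75-base words and 74.6% over whole peaks. Over whole peaks median GC was 55.3%, and TAAT was in 92.0% and CTAATGG in 5.07% of member peaks, with no value for other genes' peaks beside them. With 75-base words and no short repeats, 81 peaks shared sequence. The cause was not tested.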

Other observations

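Member peaks fell on 16 chromosomes, and chromosomes 6 and 19 held 29 and 22 of them. No member peak came from a repeated line of the list.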
